A study of Homo sapiens with 12 samples.

Results

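The genes for the proteins of the cytosolic ribosome were followed in Daoy cells, an established human medulloblastoma (MB) line, cultured in astrocyte conditioned media (ACM) or in DMEM. Members were chosen by name. A gene belonged to the set when the RefSeq accession of its probe gave a symbol made of RPL or RPS and a number, with a suffix such as A, L, X, AL or L1 allowed, or when it was RPLP0, RPLP1, RPLP2 or RPSA. Kinases named RPS6K, pseudogenes, read-through genes and Y-linked copies were left out. By this rule 85 of the 27708 genes on the array, a total that includes transcripts without a symbol, were members. Each member was read through its brightest probe. Of these, 46 had 1 probe and 39 had 2 or more.

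The study asked how factors secreted by astrocytes alter MB cells. Its 12 single-colour Agilent arrays measured 3 cultures in each of 4 groups: ACM for 1 passage (P1 ACM), DMEM for 1 passage (P1 DMEM), ACM for 3 passages (P3 ACM) and DMEM for 3 passages (P3 DMEM), with 48 h per passage. ACM came from primary neonatal rat astrocytes, and both media held 10% serum. The model is a single cell line that met secreted factors and no astrocytes. The labels give no genetic change or drug in any group.

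A ribosome translates mRNA. Its small (40S) subunit, with the RPS proteins, reads the message, and its large (60S) subunit, with the RPL proteins, joins the amino acids. The mRNAs of ribosomal proteins are among the most abundant in growing cells, and in many of them the first bases form a terminal oligopyrimidine (TOP) tract, a C followed by a run of C and T, through which mTOR signalling controls their translation. Several of these genes serve as references in quantitative PCR. Some have paralogues with a tissue-restricted or separate role.

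The first bases of selected members are shown because the TOP tract is what most of this gene set shares in sequence and its paralogues mostly lack. Each run holds 15 bases before and 15 bases from an annotated start, 5′ to 3′ on the strand of the gene, from RefSeq on GRCh38.p14. Where a gene had several starts, the one with the longest pyrimidine run was used, as for RPL10 with 3. Capitals mark the annotated first base and, where it is a C followed by at least 4 bases that are C or T, the whole pyrimidine run.
RPLP2 (chr11:809952-809981, + strand): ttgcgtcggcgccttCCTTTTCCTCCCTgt
RPL31 (chr2:101002274-101002303, + strand): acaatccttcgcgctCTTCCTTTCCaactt
RPL12 (chr9:127451392-127451421, - strand): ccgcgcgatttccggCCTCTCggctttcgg
RPLP1 (chr15:69452803-69452832, + strand): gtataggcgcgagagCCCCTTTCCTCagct
RPL10 (chrX:154398362-154398391, + strand): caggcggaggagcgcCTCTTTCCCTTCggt
RPL10L (chr14:46651767-46651796, - strand): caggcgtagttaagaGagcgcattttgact
RPS27 (chr1:153990747-153990776, + strand): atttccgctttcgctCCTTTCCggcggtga
RPS27L (chr15:63157463-63157492, - strand): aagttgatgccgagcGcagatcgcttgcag
RPL7L1 (chr6:42879601-42879630, + strand): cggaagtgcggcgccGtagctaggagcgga
RPL22L1 (chr3:170870181-170870210, - strand): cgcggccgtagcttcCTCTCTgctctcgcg

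A start sequence was at hand for 68 of the 85 members. A C followed by at least 4 pyrimidines stood at an annotated start in 47 of them (69.1%) and in 1404 of 27305 genes with a start sequence (5.14%). Among the paralogues it was found in 1 of 6, RPL22L1, and among the other members in 46 of 62. Counted by start, it was found at 47 of 84 starts of members and at 4.07% of all starts. The median run was 8 bases. A gene without the tract, such as RPL19 or RPL32, lacks these letters in this window only.

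All 85 members passed the filter on dim probes, and all were well above background on all 12 arrays. The probe of the median member was brighter than 99.5% of the genes tested. In 64 members it lay above the 99th percentile, and in 7 below the 90th. The dimmest were RPL3L, at percentile 40.1, and RPL27A, at percentile 53.2. A probe's brightness also depends on its sequence, so these ranks place the probes and do not order the mRNAs by abundance. Ribosomal protein genes have many processed pseudogenes and some nearly identical copies, such as RPL10 and RPL10L, and the probes of such genes may bind more than 1 transcript.

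Arrays with the same scan date in the scanner output were taken as 1 slide. By this the arrays were spread over 3 slides, and none of these carried both media at 1 passage. All of P1 ACM and replicate 1 of P3 ACM were on slide 1. Replicates 2 and 3 of P3 ACM shared slide 2 with replicates 1 and 2 of P1 DMEM. The remaining replicate of P1 DMEM, its number 3, was on slide 3 beside all of P3 DMEM. The median intensity of an array was 265.2 to 606.2, and 74.3% to 94.6% of probes were well above background. No spot was saturated, and the number of arrays limits the precision. The neural markers NES, VIM, SOX2, ZIC2, GLI1, GLI2, OTX2 and PAX6 (8 of 10 in the list) were well above background on all 12 arrays, but so were 5 of 8 astrocyte, 5 of 8 neuronal and 7 of 8 fibroblast markers and 5 of the 7 microglial markers with a probe, so this call does not tell cell types apart. The columns of the authors' normalized table and the scanner files carry conflicting sample labels, 0 of 12 columns ranking best with the array of its own label. All values below follow the labels of the scanner files, and which labels are right was not settled. The P3 ACM columns of the table ranked best with P3 ACM replicate 2 and P3 DMEM replicates 2 and 3 of the scanner files. Its P3 DMEM columns ranked best with the arrays of P1 ACM. The directions between media given below thus depend on the scanner labels.

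Levels are given as log2 intensities after subtracting each array's 75th percentile, so that 1 unit is a 2-fold difference. The levels of ribosomal protein genes moved together from array to array. Each member's level was set against its own mean over the 12 arrays, and the median of these deviations was 0.53 on P3 DMEM replicate 2, 0.22 on P3 DMEM replicate 1, 0.12 on P3 DMEM replicate 3 and 0.09 on P1 DMEM replicate 3. On the other 8 arrays it was −0.23 to 0.04. The 4 highest arrays were thus the 4 of slide 3. Of the 85 members, 71 were highest on P3 DMEM replicate 2 and 77 on a P3 DMEM array. The median correlation of a member with the median of the others over the 12 arrays was 0.88, above 0.8 in 62 members, and these values share the scaling of each array. The paralogues RPL39L (−0.53), RPL7L1 (−0.62) and RPL3L (−0.68) correlated below 0. The other genes in the brightest 10% of the array had median deviations of 0.34, 0.11 and 0.03 on the P3 DMEM replicates 2, 1 and 3, in the same order and smaller. On the fourth array of slide 3, P1 DMEM replicate 3, they had −0.08. On P1 DMEM replicate 1 and P3 ACM replicate 3, both of slide 2, they had 0.08 and 0.07.

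**Figure D1:**
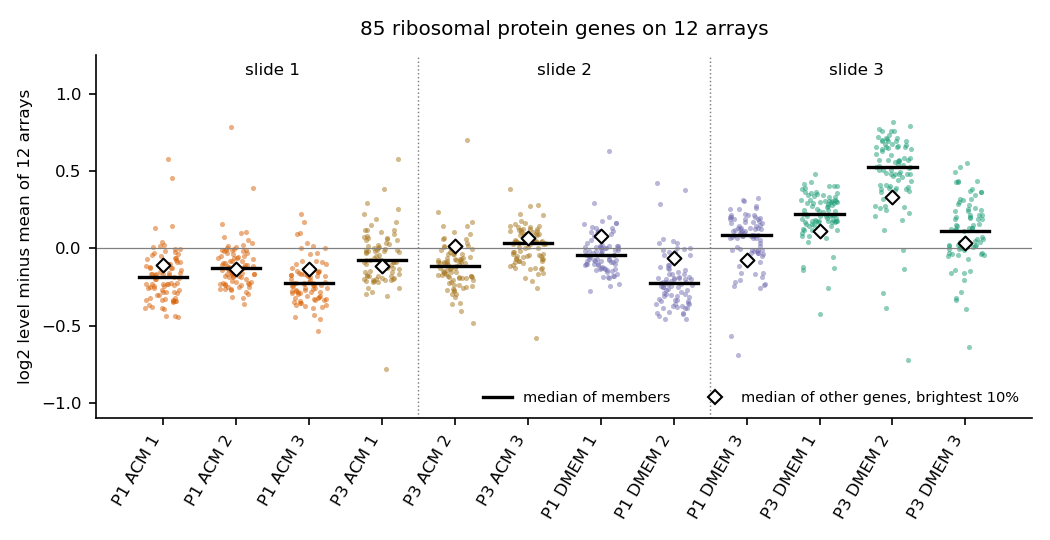
Level of each of the 85 ribosomal protein genes (points) on each array, as log2 level minus the mean of that gene over 12 arrays, with arrays ordered by slide and coloured by group. Bars are the medians of the members and diamonds the medians of the other genes in the brightest 10%. P3 DMEM replicate 2, on slide 3, has the highest median, 0.53, and P1 DMEM replicate 2, on slide 2, and P1 ACM replicate 3, on slide 1, the lowest, −0.23.

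The SD of a member over the 12 arrays was 0.26 at the median, with a range of 0.10 to 0.52. It was 0.25 for the other genes of the brightest 10% and 0.37 for all 25275 genes tested. Within groups of 3 the median SD was 0.18 for members, 0.22 for the brightest 10% and 0.33 for all genes. The steadiest were RPL39L (0.10), a paralogue of RPL39, RPS13 (0.14), RPL13 (0.15) and RPL24 (0.17). The most variable were RPL3L (0.52) and RPL27A (0.49), the 2 dimmest members, then RPL37 (0.36) and RPS14 (0.35), a small subunit protein, which are bright.

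After 1 passage, most ribosomal protein genes were slightly lower in ACM than in DMEM on the 75th percentile scale, and on no side after quantile normalization (median 0.00, 43 of 85 below 0) or with slide as a block (median −0.02, 45 below 0). The median log2 difference, ACM minus DMEM, was −0.11, with 70 members below 0 and 15 above, in a range of −0.40 to 0.32. The other genes of the brightest 10% had the same median, −0.11, and all genes tested had 0.15. With limma, 2 members had an unadjusted p of 0.05 or less, both lower in ACM, against 0.91% of all genes lower and 23.1% higher. They were RPL10, which joins the large subunit late in its assembly, and RPLP1, of the P stalk that recruits elongation factors. No member (0) passed an adjusted p of 0.05, and the smallest was 0.164 (limma, Benjamini-Hochberg), while 0 of all 25275 genes passed at P1. None (0) met the thresholds of the study, more than 2-fold and an unadjusted p of at most 0.05, which 13.5% of all genes met upwards and 0.0989% downwards.

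RPL10 read 5.86, 5.61 and 5.86 in P1 DMEM, 5.45, 5.47 and 5.19 in P1 ACM, 6.15, 6.23 and 5.86 in P3 DMEM, and 5.55, 5.79 and 5.74 in P3 ACM. All ACM arrays lay below all DMEM arrays of the same passage. The difference was −0.40 (SE 0.17) at P1, with an adjusted p of 0.175 in limma, and −0.38 (SE 0.17) at P3, with an adjusted p of 0.702. RPL10 had 4 probes, and a very dim one, well above background on 8 arrays, differed by 1.48 at P1, opposite to the brightest.

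RPLP1 read 5.93, 6.24 and 6.07 in P1 DMEM, 5.61, 5.77 and 5.77 in P1 ACM, 6.11, 6.23 and 6.23 in P3 DMEM, and 5.70, 5.87 and 5.87 in P3 ACM. Again the media did not overlap at either passage. The difference was −0.36 (SE 0.15) at P1 and −0.38 (SE 0.15) at P3, with adjusted p of 0.164 and 0.683 in limma. With slide as a block these were −0.20 and −0.34, and the unadjusted limma p, 0.030 and 0.025 without the block, became 0.479 and 0.235.

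Of the 85 members, 11 had all P1 ACM arrays below all P1 DMEM arrays (12.9%, against 5.36% of all genes and 17.2% of the other genes in the brightest 10%), and none (0) had them above (30.6% of all genes). RPS4X had no value on P1 DMEM replicate 2 and entered the P1 fit with 2 control arrays. The largest positive differences at P1 were those of RPL7L1 (0.32, adjusted p = 0.406 in limma), a nucleolar relative of RPL7, RPL3L (0.14), the paralogue of striated muscle, RPL13A (0.09) and RPS27L (0.09), and their groups overlapped. RPL27A had a difference of −0.32 at an SE of 0.41.

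After 3 passages the same direction was seen with larger values on this scale, and again not after quantile normalization (39 of 85 below 0). The median difference was −0.33, which is 20.4% lower in ACM, with 80 members below 0 and 5 above, and the lowest was −0.63, or 35.5% lower. The other genes of the brightest 10% had a median of −0.18 and all genes 0.00. An unadjusted p of 0.05 or less was found for 31 members (36.5%), all lower in ACM, by −0.63 to −0.36, against 3.43% of all genes lower, and for 0 members higher, against 3.85% of all genes. None (0) of the 85 passed an adjusted p of 0.05, the smallest being 0.615, nor did any of the genes tested, and none (0) met the thresholds of the study (0.914% of all genes upwards and 0.819% downwards). The groups did not overlap in 47 members lower in ACM (5.02% of all genes) and in 2 higher (4.74%). In the other genes of the brightest 10% these shares were 15.4% and 2%.

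The 188 genes that are not members but lie in the brightest 1% of the array with 64 members had similar values. Their median difference at P3 was −0.36 against −0.38 for those 64 members, 93.1% of them were below 0, and 65 (34.6%) were lower with an unadjusted p of at most 0.05 in limma. Between P1 DMEM and P3 DMEM the medians were 0.31 for those genes and 0.39 for the 64 members. Across the 85 members the P3 difference was more negative the brighter the probe (Spearman's rho −0.68, across genes, which are not independent).

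**Figure D2:**
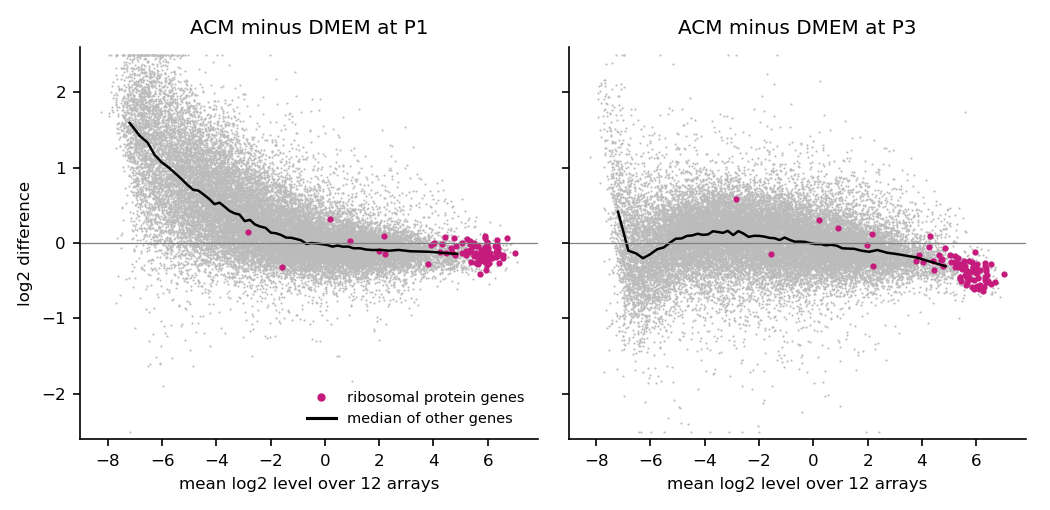
Log2 difference, ACM minus DMEM, at P1 (left) and P3 (right) against the mean log2 level over 12 arrays, with ribosomal protein genes in magenta, the other genes tested in grey (values beyond 2.5 drawn at 2.5) and their running median in black. At P3 the members at the bright end lie around −0.38, and the other genes of the brightest 1% have a median of −0.36.

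RPLP2, a P stalk protein, had the smallest unadjusted p of the members at P3, 0.0054 (limma, adjusted p = 0.615). It read 6.95, 7.10 and 6.98 in P3 DMEM and 6.48, 6.40 and 6.53 in P3 ACM, against 6.51, 6.22 and 6.69 in P1 DMEM and 6.18, 6.34 and 6.29 in P1 ACM. The P3 DMEM arrays stood above all others, and the P3 ACM arrays lay within the range of P1 DMEM. The P3 difference was −0.54 (SE 0.16). It was −0.57 to −0.49 with any array left out, −0.07 after quantile normalization and −0.22 with slide as a block.

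RPL31, near the exit of the nascent peptide tunnel, had the most negative difference, −0.63 (SE 0.19, adjusted p = 0.637 in limma). It read 6.43, 6.93 and 6.78 in P3 DMEM and 6.13, 5.98 and 6.12 in P3 ACM. In P1 DMEM it read 6.02, 5.89 and 6.46, and in P1 ACM 6.05, 6.14 and 6.07, so that the passages were 0.59 apart in DMEM and −0.01 in ACM, and P1 DMEM replicate 3, the control on slide 3, overlapped P3 DMEM. The second probe of RPL31 gave −0.56 at P3.

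RPL12, at the base of the stalk, read 6.21, 6.57 and 6.35 in P3 DMEM and 5.87, 5.60 and 5.83 in P3 ACM, and 5.73, 5.50 and 6.11 in P1 DMEM and 5.74, 5.79 and 5.65 in P1 ACM. The P3 groups were apart, the P1 groups were not, and P1 DMEM was spread most widely, with its slide 3 array on top. The difference was −0.61 at P3 and −0.05 at P1. RPL37 (−0.61) and RPL36A (−0.58), both of the 60S subunit, were the next most negative at P3.

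**Figure D3:**
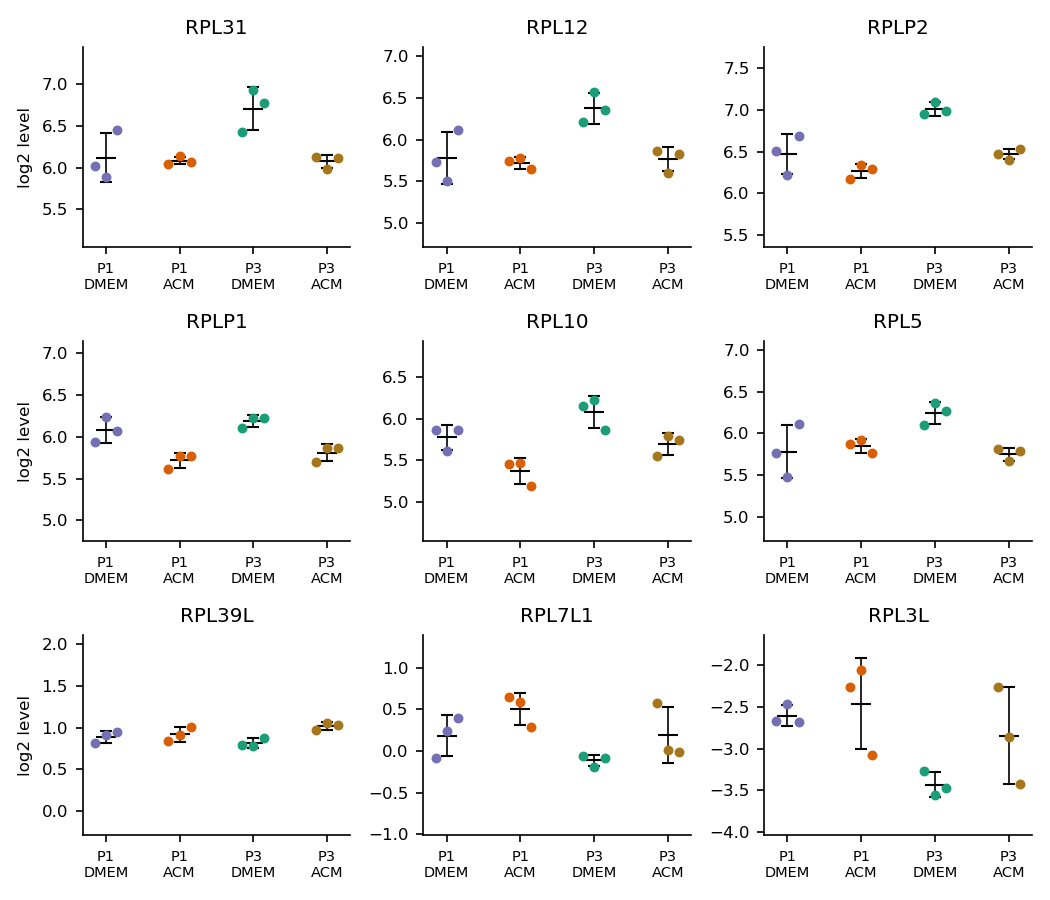
Log2 levels of 9 members on the 3 arrays (points, replicates 1 to 3 from left to right) of each group, with mean and SD as bars, on axes that all span the same range around the mean of the gene. On this scale RPL31, RPL12, RPLP2 and RPL5 are highest in P3 DMEM, RPLP1 and RPL10 are lower in ACM at both passages, and the paralogues RPL39L, RPL7L1 and RPL3L have higher means in ACM than in DMEM at P3.

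By role, the 60S members other than the paralogues (46) had a P3 median of −0.36 with 19 of them lower at an unadjusted p of at most 0.05, and the 40S members (31) −0.33 with 12. These shares stand beside 3.43% of all genes, 36.5% of all members and 34.6% of the other genes in the brightest 1%. In the 5S particle, which holds the 5S rRNA and can bind MDM2, both RPL5 and RPL11 were among them, at −0.50 and −0.49. In the P stalk, RPLP1, RPLP2 and RPL12 were, and RPLP0 (−0.34) was not. Of the genes mutated in Diamond-Blackfan anaemia, an inherited failure of red cell production, 9 of 19 were lower at that p, with a median of −0.35.

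Of 5 members used as PCR references, 2 were lower at P3 with an unadjusted p of at most 0.05, RPL19 (−0.51) and RPS18 (−0.52). RPL13A (−0.38), RPL32 (−0.36) and RPLP0 (−0.34) had unadjusted p of 0.076, 0.080 and 0.064 in limma. The probes of 2 of these genes were at odds, with 0.20 for the second RPS18 probe and up to 0.02 for RPL13A. At P1 the 5 had a median of −0.18 and none (0) was called.

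The 8 paralogues lay on both sides of 0 at P3. Their median difference was 0.05, 4 were below 0 and 4 above, and none (0) had an unadjusted p of 0.05 or less, while 76 of the 77 other members were below 0. The paralogues are also dimmer, at a median percentile of 88.9, and the part of brightness in this was not tested. After quantile normalization the medians were 0.14 for paralogues and 0.00 for the other members, and with slide as a block −0.21 and −0.17. RPL39L, which replaces RPL39 in testis, read 0.79, 0.78 and 0.88 in P3 DMEM and 0.97, 1.06 and 1.03 in P3 ACM, so that ACM was higher on all arrays, by 0.21 (SE 0.13, adjusted p = 0.738 in limma). RPL7L1 read −0.06, −0.19 and −0.09 in P3 DMEM and 0.57, 0.01 and −0.02 in P3 ACM, also without overlap. RPL3L (0.59) and RPS27L (0.12), a target of p53, were above 0 with overlapping groups. RPL36AL (−0.31), RPL10L (−0.24), RPL22L1 (−0.16) and RPL26L1 (−0.03) were below 0.

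Members with a TOP tract at an annotated start had a median P3 difference of −0.35 (47 genes) and those without one −0.31 (21 genes). Other genes of translation were set beside them. FAU, whose product carries a ribosomal protein fused to a ubiquitin-like domain and which the naming rule leaves out, had −0.37, with an unadjusted limma p of 0.087. For each other list, the genes below 0 and those lower at an unadjusted p of at most 0.05 (3.43% of all genes) were counted at P3. Translation factors with TOP mRNAs (18) had a median of −0.25, with 15 below 0 and 1 at that p. Initiation factors (28 of 29 tested) had −0.13, with 22 below 0 and 5 at that p, among them EIF3C (−0.47) and EIF4A1 (−0.41), both very bright. Proteins of the mitochondrial ribosome (77) had −0.05, with 51 below 0 and 2 at that p. Genes of rRNA synthesis and ribosome assembly (56) had −0.02, with 33 and 2, and genes of mTOR and TOP control (15) had −0.06, with 8 and 0.

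At both passages, 8 members (9.41%) were lower in ACM without overlap, against 1.04% of all genes and 5.02% of the other genes in the brightest 10%. They include RPL10, RPL19, RPL35A, RPL41, RPLP1, RPS7 and RPS28, and 0 members were without overlap in opposite directions. RPL19 differed by −0.27 at P1 and −0.51 at P3, and RPL41, the shortest ribosomal protein, by −0.27 and −0.47. The difference between passages in the ACM effect had an unadjusted limma p of at most 0.05 in 2 members, RPL5 and RPL31, both more negative at P3 (8.08% of all genes), in 1 with the replicate number as a block, and in 0 members more positive (0.166%). The size of this difference was −0.57 in RPL5 and −0.60 in RPL31, with an adjusted p of 0.634 in limma for both. RPL5 had 3 probes, which gave −0.50, −0.41 and 0.13 at P3 and 0.07, −0.15 and 0.10 at P1, so its value between passages is that of the brightest probe. The P3 difference was below the P1 difference in 76 of 85 members. RPL5 read 6.10, 6.37 and 6.27 in P3 DMEM and 5.81, 5.66 and 5.78 in P3 ACM, but 5.76, 5.47 and 6.11 in P1 DMEM and 5.87, 5.92 and 5.76 in P1 ACM, where the media overlapped.

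Passage in DMEM, the change without ACM, was of the same size as the P3 difference between media and shares the P3 DMEM arrays with it. P3 DMEM was above P1 DMEM by a median of 0.36, with 81 members above 0, against 0.19 in the other genes of the brightest 10% and 0.08 in all genes. An unadjusted limma p of 0.05 or less was found for 34 members higher (5.15% of all genes) and 1 lower, RPL3L at −0.83 (2.98%), and 0 passed adjustment, the smallest adjusted p being 0.571. With slide as a block, and likewise after quantile normalization, 0 members were higher and 1 was lower at an unadjusted limma p of at most 0.05, and all of P3 DMEM was on slide 3. The median with the block was 0.22. The groups were apart in 32 members higher at P3 (11.2% of all genes) and 1 lower (7.75%). In the other genes of the brightest 10% these shares were 17.8% and 3.59%. In ACM the median between passages was 0.12, and 0 members had an unadjusted p of 0.05 or less in either direction (0.178% of all genes higher, 13.5% lower), while the groups were apart and P3 higher in 19 (2.71%) and lower in 0 (4.1%). Of the other genes in the brightest 10%, the groups in ACM were apart with P3 higher in 9.39% and lower in 0.612%. The smallest adjusted limma p of the members in ACM was 0.394.

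Within a group, members could be compared between slides. The 2 P1 DMEM arrays of slide 2 lay below the P1 DMEM array of slide 3 by a median of −0.21 (67 of 85 below 0), while the other genes of the brightest 10% lay above it by 0.09. P3 ACM replicate 1, on slide 1, differed from the P3 ACM arrays of slide 2 by −0.02, and by −0.15 in those other genes. Within slide 3, P1 DMEM lay below P3 DMEM by −0.22, with 78 members below 0, and by −0.23 in those other genes. Within slide 2, P3 ACM lay above P1 DMEM by 0.09, with 65 members above 0, and within slide 1, P1 ACM lay below P3 ACM by −0.10. In the other genes of the brightest 10% the values within slides 2 and 1 were 0.025 and −0.003. No slide held both media at the same passage, so slide and medium cannot be told apart without an assumption that slides add the same amount to each group. Under it, the slide block rests on P1 DMEM replicate 3 and P3 ACM replicate 1, gave a P3 median of −0.17 and left 0 of the 31 P3 calls.

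The size of the P3 difference depended on the scaling. Relative to the other probes of the brightest 10%, the P3 median of members was −0.19, and 11 members were lower and 1, RPL39L, higher at an unadjusted p of 0.05 or less. After quantile normalization the median was 0.00 and 0 members were called, and the SD of a member over 12 arrays fell from 0.26 to 0.13. Quantile normalization gives the brightest ranks of each array the same values, and 64 of the 252 genes in the brightest 1% are members. Without P3 DMEM replicate 2 the P3 median was −0.23 and 13 members were called.

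**Figure D4:**
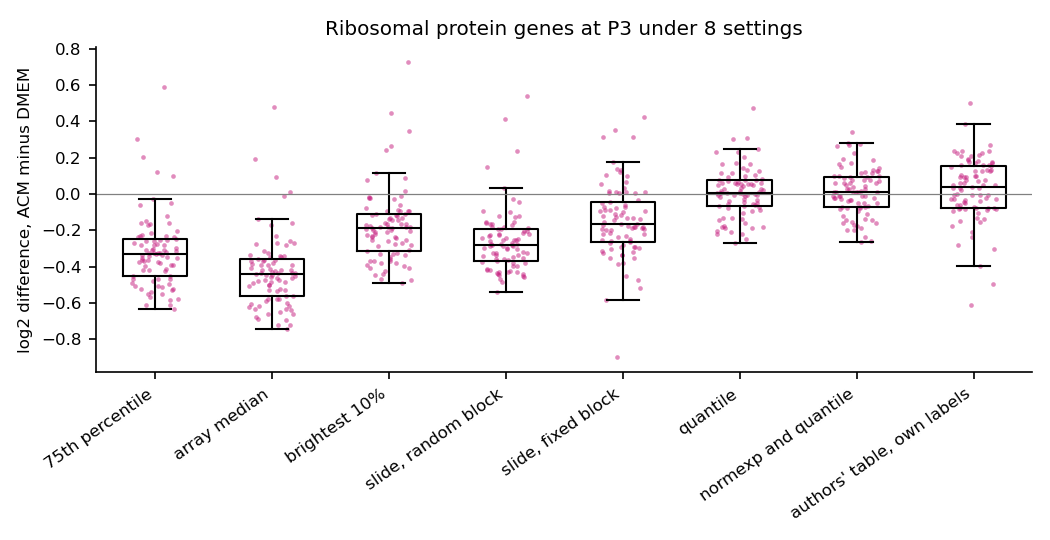
Log2 difference, ACM minus DMEM, of the ribosomal protein genes (points) at P3 under 8 settings, with boxes from the first to the third quartile, the median as a line and whiskers to the last value within 1.5 box lengths. The median is −0.33 on the 75th percentile scale, −0.19 on the brightest 10%, −0.17 with slide as a fixed block and near 0 after quantile normalization and in the authors' table. The labels of that table conflict with those of the scanner files, so its groups hold other arrays.

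Genes with several probes could be compared within the array, where all probes share the same scaling. Of 39 such members, all probes were lower in ACM at P3 in 25, probes differed in sign in 14, and in 0 were all higher. Over all probes, 138 of 158 were lower at P3. With the second brightest probe, 12 of the 39 members had an unadjusted limma p of 0.05 or less at P3, all lower. Of all genes, 3.43% were lower at that p. Of the other genes in the brightest 1%, 93.1% were below 0 and 34.6% were lower at that p, so these counts are not particular to members.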

How the data were processed

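Gene expression of 12 Daoy cultures was measured on single-colour arrays. The authors deposited the scanner output, with a background-corrected intensity per spot from Agilent Feature Extraction 11.0.1.1 (per the labels), and a table of normalized log2 values, used only as an alternative under its own labels. Control spots (1377) and outlier spots were removed, spots of a probe were averaged, and log2 intensity was tested after subtracting each array's 75th percentile. A probe was kept if all arrays of 1 or more groups had it well above background (31078 of 34127). Symbols came from RefSeq (GRCh38.p14) for 25771 probes (75.5%). Probes without a symbol were counted as genes under the name given on the array, so the totals and shares of all genes include them. Groups were compared in 1 fit with limma 3.58.1 in R 4.3.3 (lmFit, eBayes, two-sided, Benjamini-Hochberg over kept probes, 8 residual degrees of freedom), checked on simulated data. Replicates are called independent experiments in the labels. The labels do not say that a replicate number links cultures. Deviations of same-numbered samples correlated by 0.43, 0.19 and 0.27 at P1 and by 0.23, −0.19 and 0.06 at P3. Differently numbered samples were not set beside them, so these values cannot show pairing. The main fit held no replicate block, which was run as an alternative.

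Members and lists were chosen with earlier results of these data known. Named genes were those with the 4 largest and 4 smallest differences at each passage and SDs over arrays, up to 6 without overlap at both passages, 4 role lists (5S particle, P stalk, paralogues, PCR references) and FAU. Some genes that the rule names are not reported here. RPS7, RPS28, RPS4X, RPS27, EIF3C and EIF4A1 were named after their values were seen. The brightest 1% and 2 scalings (brightest 10%, array median) were added after seeing the data. Other alternatives were quantile normalization, normexp (offset 50, on median intensities), other probes, dim probe filters, the slide and replicate blocks, the methods' t-test, trend and robust eBayes, and leaving out each array. Figures were drawn with matplotlib 3.10.9.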

Additional observations from a re-analysis of the deposited data

How the results depend on the processing

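Counts are members with an unadjusted p of 0.05 or less, and 0 passed adjustment under any setting tried. They are out of 85, but out of 39 with the second probe and out of 84 with normexp. At P3 (31) the count was 0 after quantile normalization, 2 after normexp and quantile normalization, 12 with the second probe, 3 in the authors' table, 0 with slide as a block, 1 as a random block, 0 with slide and quantile normalization, 14 with the arrays compared alone and 12 on the brightest-10% scale. Left-out arrays gave 13 (without P3 DMEM replicate 2) to 39, and 16 without P3 ACM replicate 2. The P3 median turned to 0.0035 (quantile), 0.0089 (normexp) and 0.038 (table), and was −0.17 with slide, −0.048 with slide and quantile, and −0.43 to −0.23 with arrays left out. The labels of the table conflict with those of the scanner files. Its counts and medians thus compare other sets of arrays and do not show an effect of normalization alone.

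For P3 against P1 in DMEM (35) the counts in that order were 1, 5, 11, 0, 1, 13, 1, 16 and 13 (each single call a lower one, with 0 higher), with 14 by the methods' t-test, 55 with trend and robust eBayes, and 6 (without P1 DMEM replicate 2) to 45 with arrays left out, 9 without P3 DMEM replicate 2 and 18 without P1 DMEM replicate 1. The median was 0.067 (quantile), 0.066 (normexp), 0.085 (slide and quantile), 0.22 (slide), 0.23 (brightest-10% scale), −0.056 in the table, and 0.23 to 0.44 with arrays left out.

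At P1 (2) the count was 0 after quantile and normexp, with the second probe and under each slide fit and the brightest-10% scale, 1 with the mean of probes and in the table, 7 by the methods' t-test and 17 on the array-median scale, and 0 (without P1 DMEM replicate 3) to 2 with arrays left out, 1 without any other P1 array. With slide as a block the median was −0.016. On the array-median scale the median over all probes went from 0.14 to −0.11 and that of members to −0.37, against −0.19 to −0.06 with arrays left out. For the difference between passages (2) it was 0 under quantile, normexp, mean of probes, second probe, table, slide block, random slide and both other scales, 1 with slide and quantile, 6 with trend and robust, and 0 to 10 (without P1 DMEM replicate 3), 5 without P3 DMEM replicate 1, 1 without its replicate 3 and 0 without any P1 ACM array, P3 ACM replicates 2 or 3, P1 DMEM replicates 1 or 2 or P3 DMEM replicate 2. For P3 against P1 in ACM (0) it was 1 with quantile, 11 by the methods' t-test, 3 with trend and robust, 5 on the array-median scale, where the median was 0.30, and 0 to 3 (without P3 ACM replicate 1) with arrays left out, 1 without P1 ACM replicate 3 or P3 DMEM replicates 2 or 3, the median then 0.08 to 0.15. With the replicate block the counts were 2, 30, 31 and 0 for P1, P3, DMEM and ACM and 1 for the difference between passages. The median SD over arrays was 0.13 after quantile normalization and in the table, and 0.19 on the brightest-10% scale. The cause of these shifts was not tested. With 3 arrays a group on slides that never held both media at a passage, medium and slide cannot be told apart.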
